A study of Homo sapiens with 39 samples.

Results

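Genes along the whole of human chromosome 12 stood higher together in RPE1 cells lacking TRIM37 than in wild type RPE1 cells. The block described here holds 575 of the 23710 gene symbols in each of the authors' deposited tables. It was formed by matching symbols to chromosome 12 of the RefSeq annotation (GRCh38.p14), which gave 1122 symbols, of which 602 had a mean count of at least 100 in the knockout table. From these, 27 symbols were left out by name, namely some p53 target genes and genes of families such as the HOX, collagen and ribosomal protein genes. The members number 560 protein-coding genes, 6 long non-coding RNA genes and 9 pseudogenes, with 133 on the short (p) arm and 442 on the long (q) arm. The p arm runs from KDM5A to ALG10 and the q arm from ALG10B to CHFR. The members were chosen by their mean count in the knockout table, and the block was singled out for its fold changes there, so the knockout values are given as a description without a test. Just outside the count limit lay NUDT4 (mean count 99.4, log2 fold change 0.51) and CD27-AS1 (96.7, -2.29), and just inside it METTL7B (103, 0.61) and WDR66 (104, -0.35), in the authors' deposited table.

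The study sequenced RNA from 39 libraries in 9 groups to compare cells with different amounts of TRIM37, a ubiquitin ligase. RPE1 is a line of retinal pigment epithelial cells immortalised with telomerase (hTERT), and CHP-134 cells derive from a neuroblastoma. The untreated RPE1 groups were wild type cells (9 libraries, numbered in the labels as 3 sets of 3), cells labelled as a TRIM37 knockout (9 libraries) and TetOn-TRIM37 clones 4 and 5, which carry a TRIM37 transgene that doxycycline induces (3 libraries each). Each TetOn clone was also treated with 1 µM doxycycline for 24 h (3 libraries each). The untreated CHP-134 groups were wild type cells and clones 1 and 2, labelled as partial TRIM37 knockouts (3 libraries each), and both clones were compared with the same 3 wild type libraries. The labels name no clone for the RPE1 knockout, and each TetOn or CHP-134 comparison rests on 1 clone. No source says whether libraries of a group came from separate cultures, so the q values may measure technical spread only. The promoter behind the transgene and the way the mutations were made are given by no source used here.

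The files held 5 tables, 1 per comparison, with no value per library, so library depth is unknown and the spread within a group is known only as the authors' standard error (SE) of the log2 fold change. TRIM37 itself had a log2 fold change of -1.95 in the RPE1 knockout, -1.66 and -1.75 in CHP-134 clones 1 and 2, and 3.19 and 2.64 after doxycycline in TetOn clones 4 and 5 in the authors' deposited tables. Among the markers of pigment epithelium, MITF (mean count 2140) and OTX2 (874) were present in the RPE1 knockout table, while RPE65 (0.173), RLBP1 (2.79) and BEST1 (5.45) were near 0, and the fibroblast marker THY1 reached 21000 in the authors' deposited table. The neuroblastoma markers CHGA and MYCN had mean counts of 12100 to 49700 in both CHP-134 tables, and TH and DBH did not exceed 9.18. The blood cell markers PTPRC, CD3E and CD14 stayed at or under 7.38 in the 3 RPE1 tables and at or under 46.6 in the CHP-134 tables.

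The amount of an RNA in a cell depends on how many copies of its gene there are, how strongly each copy is transcribed and how long the RNA lasts. Genes that neighbour each other on a chromosome usually belong to unrelated pathways, so a shift shared by most genes of a chromosome is looked for by reading fold changes in gene order. Chromosome 12 carries, among others, glycolytic enzymes, tubulins, type II keratins with KRT18, cell cycle kinases and many RNA-binding proteins. DNA was not analysed here.

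The promoters of 3 genes are shown because the genes behaved differently in the knockout: GAPDH, an abundant member close to the median of the block, PPM1H, the member farthest below it, and ARHGDIB, the member farthest above it. Each is the RefSeq sequence of the 150 bases right before the annotated start on GRCh38.p14, read on the gene's own strand, with CpG dinucleotides in capitals. They lie at chr12:6535114-6535263 on the + strand (GAPDH, 16 CpG), chr12:62935151-62935300 on the - strand (PPM1H, 11 CpG) and chr12:14948897-14949046 on the - strand (ARHGDIB, 0 CpG).
GAPDH: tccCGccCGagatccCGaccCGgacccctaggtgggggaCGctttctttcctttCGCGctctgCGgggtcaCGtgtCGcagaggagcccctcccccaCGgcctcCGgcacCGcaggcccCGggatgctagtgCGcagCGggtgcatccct
PPM1H: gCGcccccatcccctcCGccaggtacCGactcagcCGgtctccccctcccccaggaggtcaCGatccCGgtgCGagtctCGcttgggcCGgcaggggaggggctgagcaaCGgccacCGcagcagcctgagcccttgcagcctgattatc
ARHGDIB: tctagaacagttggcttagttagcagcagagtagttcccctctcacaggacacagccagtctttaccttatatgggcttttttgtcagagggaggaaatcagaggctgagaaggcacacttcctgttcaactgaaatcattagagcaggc
The GAPDH and PPM1H promoters were rich in CpG, as are those of most widely expressed genes, and that of ARHGDIB held none.

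RefSeq promoters could be matched to 467 of the 575 members. In the 250 bases before the start, the median number of CpG dinucleotides was 21 in the members, 22 in genes of other chromosomes at the same mean count limit and 11 over all 27305 promoters. The motif TATAAA, searched on both strands, was found in 3.85% of member promoters and in 11.1% of all promoters. The motif CCAAT, searched in the same way, was found in 36.6% of member promoters and 33% of all. The motif GGGCGG, which contains a CpG itself, was found in 72.6% of member promoters, 68.9% of those of other chromosomes at the limit and 42.3% of all. The members' promoters stood near those of other genes at the same mean count in each of these measures. By knockout class, the median CpG number was 21 in the 349 matched members near the block's median, 18 in the 24 matched members at 0 or lower and 7 in the 4 matched members far above the median.

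In the RPE1 knockout, 563 members could be used, and 12 had the Status Outlier in the authors' deposited table, among them the kinase gene WNK1 and the lipoprotein receptor gene LRP1. With a q under 0.05, 514 of the 563 were called higher and 24 lower, and 25 were not called. These calls take in 95.6% of the usable members. Over all 13002 usable genes of the table, 53.6% were called, 26.6% higher and 26.9% lower. With the statistics centred on their median and divided by their central spread over all usable genes, 315 members were called higher and 7 lower. The direction was then taken from the centred statistic, and the share of all genes called in this way was not worked out. The members' median log2 fold change was 0.51, a 1.42-fold higher level, with quartiles of 0.37 and 0.63. The 10061 usable genes of other chromosomes at the count limit had a median of -0.01 and quartiles of -0.15 and 0.11. Of the 27 symbols that the rule left out by name, 24 were called higher and their median was 0.51. The 87 usable chromosome 12 genes under the count limit had a median of 0.37 and a median SE of 0.24.

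The abundant members named next were picked from those within 0.25 of the block's median, so their closeness to it was a condition. Other abundant members lay outside that range, such as KRT8 (mean count 20500, log2 fold change -0.46) in the authors' deposited table. GAPDH, the glycolytic enzyme often used as a reference gene, had a mean count of 292000 and a log2 fold change of 0.50 (SE 0.0213) in the authors' deposited table. Its group level, rebuilt from that mean count and fold change, was 242000 in wild type and 342000 in knockout cells. The tubulin gene TUBA1B was at 0.52 (SE 0.0111), the nucleosome assembly gene NAP1L1 at 0.52 (SE 0.0277) and the endoplasmic reticulum chaperone gene HSP90B1 at 0.42 (SE 0.0237) in the authors' deposited table. The ATP synthase gene ATP5B was at 0.61, the nascent polypeptide binding gene NACA at 0.62, the apoptosis regulator gene TMBIM6 at 0.68 and the mitochondrial phosphate carrier gene SLC25A3 at 0.68 in that deposited table of the authors. The members were also split into 4 equal bins by mean count, whose medians were 0.50, 0.52, 0.52 and 0.50 from the lowest bin to the highest, with interquartile ranges of 0.31, 0.25, 0.22 and 0.26. Within 0.25 of the members' median lay 419 members (74.4%), close to the 75.5% of other genes at the limit that lay within 0.25 of their own median.

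**Figure D1:**
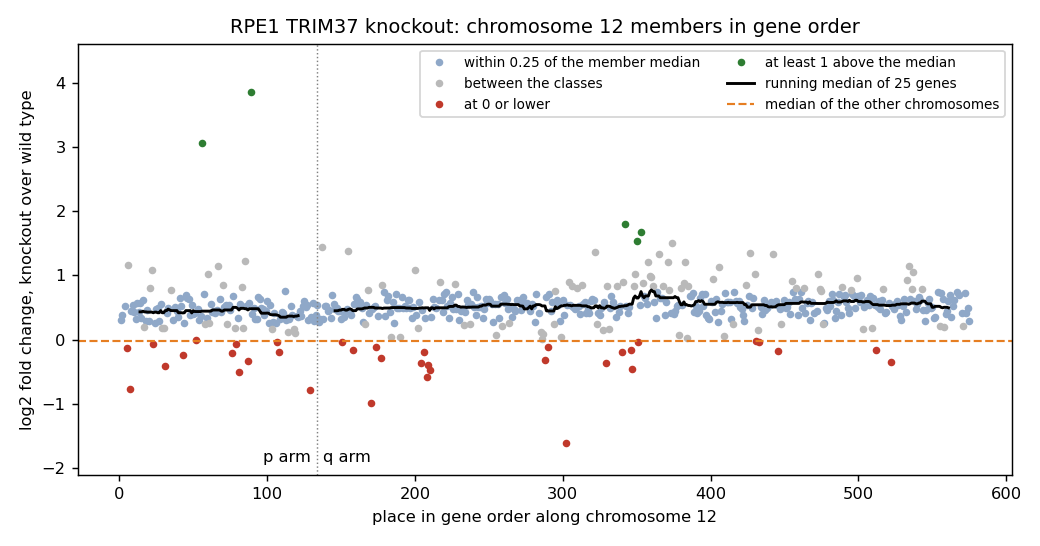
Log2 fold change of each usable member in the RPE1 knockout against its place in gene order along chromosome 12, coloured by class, with the running median of 25 genes in black, the median of the other chromosomes dashed, and the arms parted by the dotted line. The running median stays between 0.35 and 0.77 on both arms, while 36 members lie at 0 or lower and 5 lie at least 1 above the median.

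Read along the chromosome, the shift had no gap at the scale of 25 members. Windows of this size do not show shorter gaps, such as the neighbours KRT86, KRT81 and KRT8, which all lay below 0. Running medians of 25 neighbouring members were above 0 in all 106 windows of the p arm and all 409 of the q arm. The median was 0.42 on the p arm (130 usable members, 117 called higher and 8 lower) and 0.53 on the q arm (433 usable, 397 higher and 16 lower). The lowest running median of the p arm was 0.35, from RECQL to IPO8, and the highest 0.50, from LOC374443 to ARHGDIB. On the q arm it ran from 0.45, between STAT6 and PPM1H, to 0.77, between E2F7 and CRADD. In 10 runs of 56 or 57 members, the medians in order were 0.43, 0.44, 0.45, 0.50, 0.52, 0.52, 0.65, 0.55, 0.58 and 0.54. The highest of these runs went from CSRP2 to NT5DC3 and had the widest quartiles, 0.45 and 0.84. At the ends of the arms, KDM5A, a histone demethylase gene, was at 0.30 (SE 0.0347), ALG10 at 0.38 (SE 0.0903), ALG10B at 0.54 (SE 0.0855) and CHFR, a mitotic checkpoint ligase gene, at 0.30 (SE 0.0554) in the authors' deposited table. ALG10 and ALG10B, which encode near-identical glucosyltransferases, may share reads.

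Sorted by function, 6 of 7 lists of members had medians of 0.48 to 0.57, beside -0.0022 over all usable genes. As a background for the counts per list, 91.3% of all usable members and 26.6% of all usable genes were called higher. Among 25 genes of glycolysis and central metabolism, 22 were called higher and 3 were not called. The authors' deposited table gave 0.36 (SE 0.0215) for TPI1, 0.45 (SE 0.0251) for LDHB, 0.06 (SE 0.0223) for the thioredoxin reductase gene TXNRD1, and -0.04 (SE 0.029, q = 0.253) for SLC38A2, which encodes an amino acid transporter. Of 33 genes of the cell cycle, replication and mitosis, 32 were called higher and 1 was not called. CDK4, a G1 kinase gene, was at 0.71 (SE 0.022), FOXM1, a regulator of mitotic genes, at 0.57 (SE 0.0164), the condensin gene NCAPD2 at 0.48 (SE 0.0207), the cytokinesis gene RACGAP1 at 0.58 (SE 0.0267) and the nuclear transport gene RAN at 0.60 (SE 0.0302) in the authors' deposited table. All 45 genes of RNA processing and translation were called higher, with a median of 0.57. Among them the authors' deposited table gave 0.67 for the RNA-binding protein gene PCBP2, 0.63 for the initiation factor gene EIF4B, 0.51 for the tRNA export gene XPOT and 0.49 for the translational control gene GCN1L1. All 36 genes of ubiquitin, folding and degradation were called higher as well, with a median of 0.52. The chaperonin gene CCT2 was at 0.50 (SE 0.035) and the endosomal tetraspanin gene CD63 at 0.55 (SE 0.0265) in the authors' deposited table.

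The other 3 lists held some of the 24 members called lower. Of 33 genes of growth factor and RAS signalling, 26 were called higher and 5 lower, with a median of 0.48. PXN, the focal adhesion gene paxillin, was at 0.96 (SE 0.0328), the tumour necrosis factor receptor gene TNFRSF1A at 0.81 (SE 0.0228), the phosphatase gene PTPN11 at 0.44 (SE 0.0169) and STAT6 at 0.57 (SE 0.018) in the authors' deposited table. Of 32 genes of transcription and chromatin, 30 were called higher and 1 lower, with a median of 0.51. The authors' deposited table held HMGA2, a chromatin architecture gene, at 0.86, the BAF complex gene SMARCC2 at 0.55, the heterochromatin gene CBX5 at 0.48, HDAC7 at 0.38 and the remodeller gene CHD4 at 0.18. Of 32 genes of the cytoskeleton, membrane and matrix, 23 were called higher and 6 lower, with a median of 0.34. The shares called lower, 15.2% for signalling and 18.8% here, lay under the 26.9% called lower over all genes. The authors' deposited table had the myosin light chain gene MYL6 at 0.08 (SE 0.0411, q = 0.0979), the actin-binding gene CORO1C at 0.15 (SE 0.0136) and TUBA1C at 0.37 (SE 0.0201).

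The members that stood apart were few. At a log2 fold change of 0 or lower lay 36 members (6.39%), of which 24 were called lower and 12 were not called. Among other genes at the count limit, 5.5% lay as far under their own median. PPM1H, a protein phosphatase gene, was lowest at -1.60 (SE 0.0902) in the authors' deposited table. Levels rebuilt from its mean count and fold change were 460 in wild type and 152 in knockout cells. The Wnt ligand gene WNT10B was at -0.98 (SE 0.141) and WNT5B, another ligand of that family, at -0.76 (SE 0.0317) in the authors' deposited table. Their levels, rebuilt in the same way, were 175 and 88.8 for WNT10B and 9340 and 5520 for WNT5B. FGD4, an exchange factor gene for CDC42, was at -0.79 (SE 0.043), the receptor gene GPRC5A at -0.50 (SE 0.0278), the LIM protein gene CSRP2 at -0.45 (SE 0.0672), the receptor phosphatase gene PTPRB at -0.36 (SE 0.0301) and the nuclear receptor gene NR4A1 at -0.36 (SE 0.109) in the authors' deposited table. Their neighbours mostly stayed with the block: PPM1H lay between MON2 (0.39) and DPY19L2 (0.54), FGD4 between BICD1 (0.32) and DNM1L (0.36), and WNT10B between ARF3 (0.41) and PRKAG1 (0.49) in the authors' deposited table. The 36 genes formed 4 adjacent pairs, and the 64 other neighbours, which are above 0 by this choice, had a median of 0.50.

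The keratins were a place where several neighbours fell below 0 together. In gene order, the authors' deposited table gave KRT80 at -0.20, KRT7 at 0.34, KRT86 at -0.58, KRT81 at -0.39, KRT8 at -0.46 and KRT18 at 0.35. KRT8 and KRT18 encode the partners of 1 filament, and their rebuilt levels went from 23800 to 17200 and from 22700 to 28900. The annotated spans of KRT8 and KRT18 overlap, as do those of KRT81 and KRT86. Other genes named here overlap a neighbour too, such as CDK4 with TSPAN31, BHLHE41 with SSPN, ACSS3 with PPFIA2, FOXM1 with RHNO1, STAT6 with NAB2, ANKRD13A with GIT2, and CPM with a gene left out of the block. No source used here gives the strand and counting rules, so reads of these pairs may be shared, as may those of the closely related tubulins TUBA1A, TUBA1B and TUBA1C.

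Far above the block stood 5 members (0.888%), against 1.22% of other genes at the limit that stood as far above their own median. ARHGDIB, a gene best known from blood cells, was at 3.86 (SE 0.074) in the authors' deposited table. Its levels rebuilt from that table were 171 in wild type and 2490 in knockout cells. CD163L1, a scavenger receptor gene of macrophages, was at 3.06 (SE 0.17) in the authors' deposited table, with rebuilt levels of 31.3 and 261. The blood cell markers CD14 and PTPRC had mean counts of 3.17 and 7.38 in the authors' deposited table. The early response gene PHLDA1 was at 1.80 (SE 0.0231), the acyl-CoA synthetase gene ACSS3 at 1.67 (SE 0.153) and the synaptotagmin gene SYT1 at 1.54 (SE 0.0416) in the authors' deposited table. Next came TMCC3 (1.5), the kinase gene LRRK2 (1.44), the exchange factor gene RAPGEF3 (1.38), the carboxypeptidase gene CPM (1.37), the chemerin receptor gene CMKLR1 (1.35), the ERK phosphatase gene DUSP6 (1.33) and FAM222A (1.33) in the authors' deposited table. SYT1 and ACSS3 lay in the stretch with the highest running median, and the other 3 outside it.

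**Figure D2:**
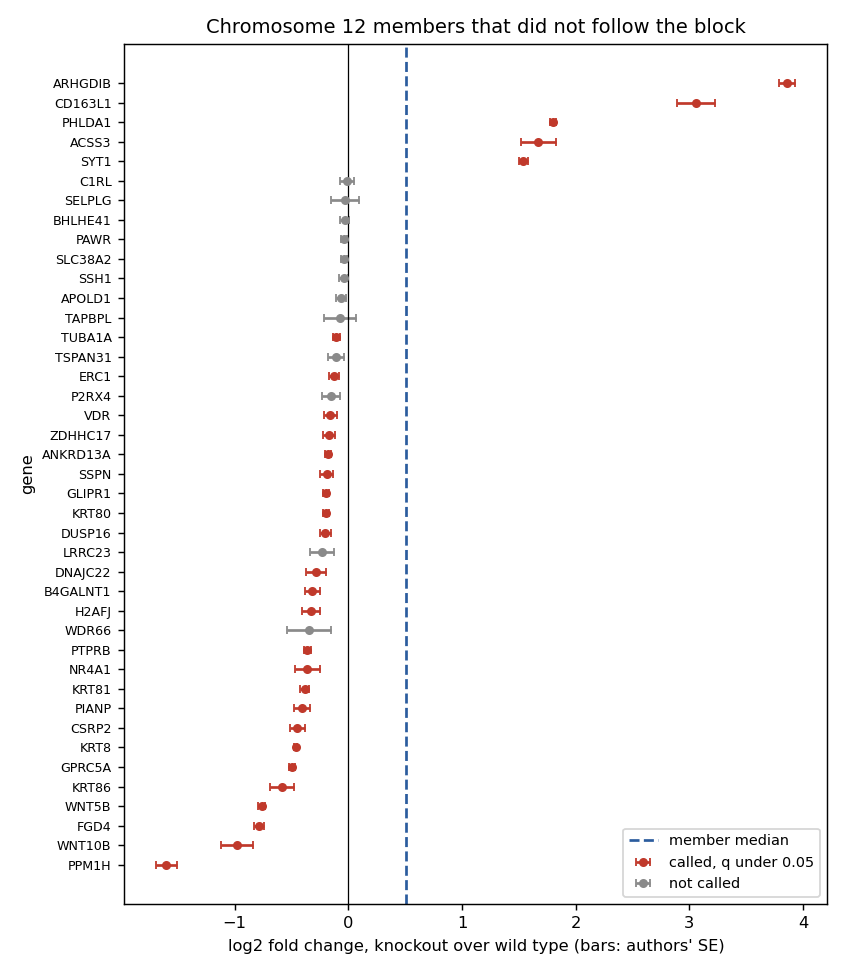
Log2 fold change in the RPE1 knockout, with the authors' SE as bars, of the 36 members at 0 or lower and the 5 at least 1 above the members' median (dashed line at 0.51). ARHGDIB at 3.86 and PPM1H at -1.60 mark the ends, and 12 of the members at 0 or lower were not called (grey).

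The next question was whether the block is also seen in the RPE1 TetOn clones, whose libraries the choice of members did not use. To see this, the level of each member in each group was rebuilt from the mean count and fold change of the authors' deposited tables and set against wild type RPE1, with the median of the other chromosomes put at 0. The wild type libraries are those of the knockout comparison that singled out the block, so this reference is not independent of the choice. The tables were normalized separately, the rebuilt levels have no spread, and these differences were not tested. Values for 544 members could be compared, 121 on the p arm and 423 on the q arm. On this scale the knockout stood 0.45 above wild type on the p arm and 0.55 on the q arm (log2 medians).

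Untreated TetOn clone 4 did not share that pattern, but had a shift of its own on 1 arm. Its p arm members had a median log2 level of 0.89 against wild type, a 1.86-fold level, with quartiles of 0.57 and 1.06, and 107 of 121 were higher. Its q arm members had a median of 0.01, with quartiles of -0.27 and 0.20, and 218 of 423 were higher. Untreated TetOn clone 5 stood at -0.14 on the p arm, with quartiles of -0.35 and -0.009, and 92 of 121 members were lower. On the q arm it stood at -0.01, with 206 members higher and 217 lower. The medians of the 22 other chromosomes lay between -0.08 and 0.07 in clone 4 and between -0.03 and 0.05 in clone 5. After doxycycline the p arm median was 0.87 in clone 4 and -0.11 in clone 5, and the q arm median 0.02 and -0.0049.

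**Figure D3:**
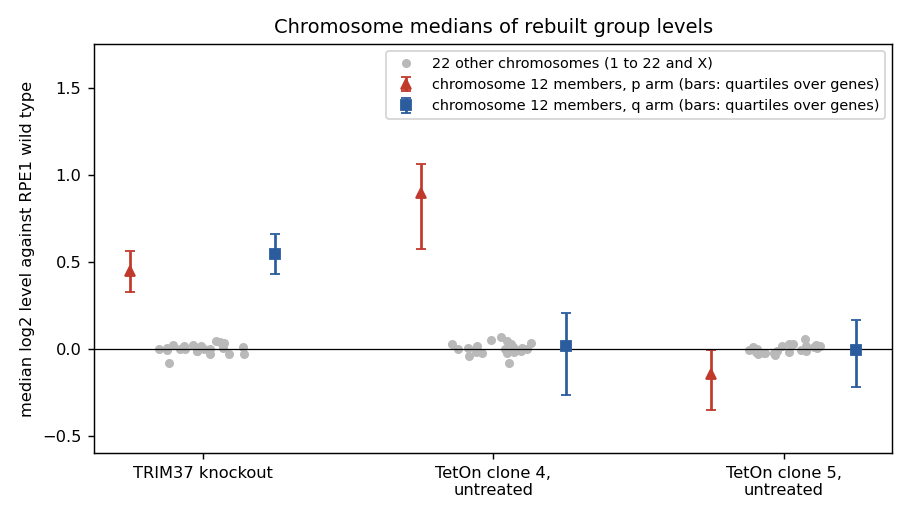
Median log2 level against wild type RPE1 in the knockout and in the untreated TetOn clones, for the p and q arm members of chromosome 12 (bars: quartiles over genes) and for each of the 22 other chromosomes (grey). The p arm of clone 4 stands at 0.89 and its q arm at 0.01, whereas the knockout stands at 0.45 and 0.55, and no other chromosome passes -0.08 or 0.07.

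Set directly against untreated clone 4, which shares no library with it, untreated clone 5 had a median log2 difference of -1.04 over the p arm, a 2.06-fold lower level, with 120 of 121 members lower. Over the q arm the median was -0.02, with 199 members higher and 224 lower. The contrast held along the p arm: its running medians of 25 members lay between -1.13 (DERA to FAR2) and -0.89 (DCP1B to GPR162), and those of the q arm between -0.15 and 0.18. None of 377 runs of 25 genes on other chromosomes passed 0.4 in either direction, their range being -0.28 to 0.27. These runs did not overlap, whereas the windows on chromosome 12 did, so the 2 ranges were not taken in the same way. The step fell between the arms. The last p arm members DNM1L, YARS2 and ALG10 were at -1.0, -1.0 and -1.22, with PKP2 at -0.40, and the first q arm members ALG10B, CPNE8 and KIF21A at 0.05, 1.34 and 0.29. At the lower end were CD163L1 at -2.59, EMP1 at -2.15 and the complement gene C1R at -2.09, and GPRC5A at 0.04 was the p arm member that was not lower (genes chosen after their values were seen).

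**Figure D4:**
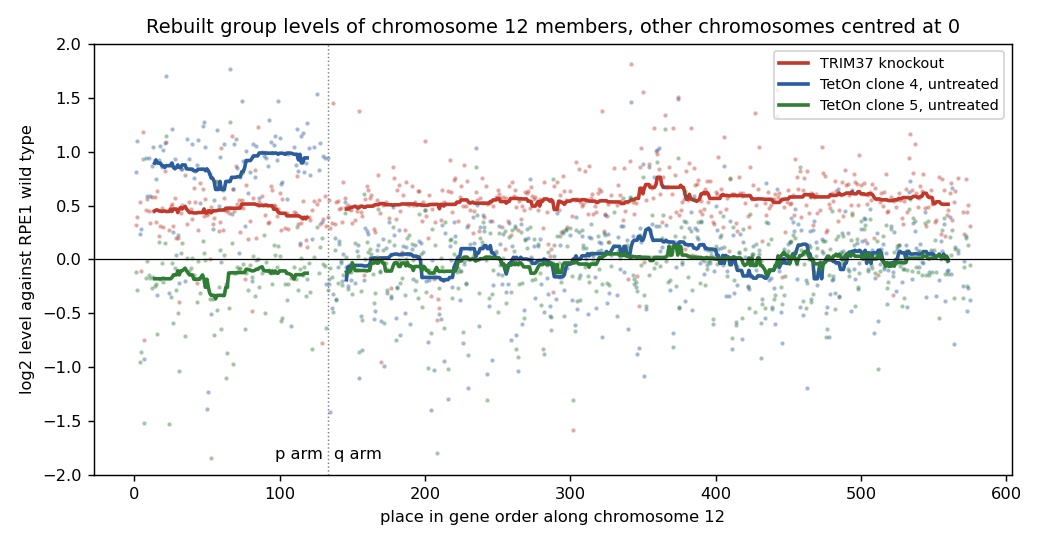
Rebuilt log2 level of each member against wild type RPE1 in gene order for the knockout (red), untreated TetOn clone 4 (blue) and untreated clone 5 (green), with running medians of 25 members within each arm; 15 points lie beyond the plotted range of 2 in either direction. The knockout line stays at 0.38 or higher, and the clone 4 line lies between 0.65 and 0.99 on the p arm and between -0.20 and 0.29 on the q arm.

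Against untreated clone 4, the knockout was lower in 98 of 121 p arm members and higher in the other 23, and it was higher in 409 of 423 q arm members and lower in the other 14. As a share of the wild type level, both rebuilt from the authors' deposited tables, GAPDH was at 142% in the knockout, 231% in untreated clone 4 and 97.9% in untreated clone 5. The lactate dehydrogenase gene LDHB was at 138%, 277% and 109% in that order, TPI1 at 129%, 210% and 101%, and the enolase gene ENO2 at 121%, 216% and 99.2%. FOXM1 was at 150%, 183% and 83.3%, and NCAPD2 at 141%, 186% and 78.5%. In each of these p arm genes the level of clone 4 was the highest of the 3. Other p arm genes went the other way, such as the tetraspanin gene TSPAN9 at 156%, 79.5% and 61.8% and C1R at 135%, 42.6% and 10.1%. On the q arm TUBA1B was at 145% in the knockout, 108% in clone 4 and 97.6% in clone 5, PCBP2 at 160%, 107% and 92.8%, and PXN at 196%, 97.5% and 91.7%. For CDK4 the shares were 165%, 135% and 116%. The knockout level was the highest in each of these q arm genes, whereas DUSP6, on the same arm, was at 253% in the knockout, 476% in clone 4 and 231% in clone 5 (TSPAN9, C1R and DUSP6 were chosen here after their values were seen).

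As a share of the summed level of all genes, the members made up 6.48% in wild type, 8.93% in the knockout, 8.12% in untreated clone 4 and 6.2% in untreated clone 5. Without GAPDH, the most abundant member, the shares were 5.86%, 8.07%, 6.71% and 5.59%. In wild type CHP-134 cells the members made up 5.6%.

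The members that left the block in the knockout were then looked at on the q arm, where the untreated TetOn clones had nearly the same median. Of the q arm members at 0 or lower in the knockout, 12 of 20 differed by at least 0.5 on the log2 scale between clones 5 and 4. The same was true of 8 of 321 (2.49%) near the block's median and of 15 of 80 between the classes. Over the genes of other chromosomes 9.51% differed by as much. The classes were set by the knockout values. Genes of other chromosomes as far under their own median were not looked at in this way, so the contrast may not be particular to chromosome 12. The shares were not tested against each other. Over both arms, the median mean count was 959 in the members at 0 or lower and 2100 in those near the median. In levels rebuilt from the authors' deposited tables, PPM1H was at 33.4% of wild type in the knockout, 20.2% in clone 4 and 40.3% in clone 5, and WNT10B at 51.5%, 67.1% and 21%. KRT81 was at 77.4%, 2.9% and 9.41%, and KRT8 at 73.3%, 70.6% and 83.2%. WNT5B, on the p arm, was at 59.7%, 52.8% and 34.9%. Others stood above wild type in at least 1 clone, such as FGD4 at 58.6%, 127% and 115% and B4GALNT1 at 81.1%, 97.5% and 168% (the latter chosen after its values were seen). The wild type libraries are shared by these comparisons. ARHGDIB was at 1460% in the knockout and at 195% and 117% in the clones, and CD163L1 at 817%, 999% and 166%.

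In the CHP-134 comparisons, 518 members could be used for clone 1 and 517 for clone 2, as 43 and 44 had the Status Low and 14 in each the Status Outlier. Clone 1 had 30 members called higher and 58 lower, or 5.79% and 11.2%, against 9.6% and 9.07% (18.7% in all) of the 12791 usable genes. Clone 2 had 89 higher and 155 lower, or 17.2% and 30%, against 22% and 24.2% (46.2% in all) of the 12771 usable genes. The members' median was -0.03 in clone 1 and -0.06 in clone 2, and that of other chromosomes at the limit -0.02 in both. The statistics were also centred on their median and divided by their central spread over all usable genes. Then 2 members were called higher and 1 lower in clone 1, and 1 higher and 0 lower in clone 2. The share of all genes called in this way was not worked out. No running median of 25 members reached the size of the lowest one in the RPE1 knockout, 0.35. Runs of genes on other chromosomes were not worked out for the CHP-134 comparisons. Running medians of 25 members lay between -0.10 and 0.08 in clone 1. In clone 2 they fell to -0.28 on the p arm (PLEKHA5 to FAR2) and -0.22 on the q arm (RAB21 to TMTC3), and reached 0.15 between ENO2 and CREBL2 and between CAMKK2 and PITPNM2. Of 33 cell cycle genes, 12 were called lower in each clone and 4 higher in clone 2, with medians of -0.10 and -0.13. Of 44 genes of RNA processing and translation, 6 were called lower in clone 1, and 18 lower and 3 higher in clone 2. Of 20 usable genes of the cytoskeleton, membrane and matrix, 7 were called higher in clone 1, and 5 higher and 8 lower in clone 2, and the keratins had the Status Low in both.

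Single members moved more. The lysosomal gene DRAM1 rose in both clones, by 0.93 (SE 0.16) and 1.36 (SE 0.149), and in the same deposited tables of the authors DUSP16, a stress kinase phosphatase gene, rose by 0.96 (SE 0.125) and 0.36 (SE 0.112). The transcription factor gene FOXJ2 was lower in both, at -1.56 (SE 0.285) and -1.78 (SE 0.334), at low mean counts of 11.1 and 12.3 in the authors' deposited tables. The ETS factor gene ELK3 was at -0.38 and -0.54 and the phospholipid synthesis gene CHPT1 at -0.34 and -0.39, called lower in both clones of the authors' deposited tables. FAR2, a fatty acyl reductase gene, was called in opposite directions, at 0.82 (SE 0.253) in clone 1 and -2.42 (SE 0.356) in clone 2, as was WNT10B, at -1.10 (SE 0.281) and 0.88 (SE 0.245), both at mean counts of 10.1 to 31.9 in the authors' deposited tables. In clone 1 the cytokine signalling inhibitor gene SOCS2 rose by 0.83 (SE 0.181) and E2F7 was lower at -0.41 (SE 0.0873), and the authors' deposited table had them at -0.09 (q = 0.668) and -0.13 (q = 0.187) in clone 2. LOH12CR1 was called higher in clone 1, at 0.62, with 0.27 (q = 0.15) in clone 2 in the authors' deposited tables. In clone 2 LRP1 rose by 1.07, WDR66 by 1.05, FAM109A by 0.94 and LOC374443 by 1.65, while CAPS2 (-1.41), TMCC3 (-1.20) and CD163L1 (-1.11) were lower in the authors' deposited table. Both clones are set against the same wild type libraries, and the difference between them was not tested.

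With doxycycline, few members were called in either TetOn clone. In TetOn clone 4, 562 members could be used (1 Low, 12 Outlier), and 4 were called higher and 4 lower, or 0.712% in each direction, against 0.716% and 1.23% (1.95% in all) of the 12153 usable genes. In clone 5, 563 could be used (2 Low, 10 Outlier), and 8 were called higher and 12 lower, or 1.42% and 2.13%, against 0.795% and 2.17% (2.97% in all) of the 12195 usable genes. The members' medians were -0.0043 and 0.01. Of the 33 usable genes of the cytoskeleton, membrane and matrix, 1 was called higher and 5 lower in clone 5, and 1 higher in clone 4.

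The ceramide synthase gene CERS5 had the largest called change and rose in both clones, with 0.47 (SE 0.0465, q = 5.35e-21) in clone 4 and 0.38 (SE 0.0462, q = 7.21e-14) in clone 5 of the authors' deposited tables. In the same deposited tables of the authors, DUSP6 was called lower in both, at -0.22 (q = 0.0345) and -0.26 (q = 0.000795), and so was HSP90B1, at -0.12 (q = 0.0158) and -0.10 (q = 0.000517). In clone 4 the non-coding TMPO-AS1, which overlaps TMPO on the other strand, rose by 0.30 and the monocarboxylate transporter gene SLC16A7 by 0.27, and GCN1L1 (-0.11) was lower in the authors' deposited table. In clone 5 the keratins KRT7 (-0.28), KRT18 (-0.23) and KRT8 (-0.18) were called lower, as were BHLHE41 (-0.26), a clock-related repressor gene, and the adhesion gene AMIGO2 (-0.20) in the authors' deposited table. In the same clone PLEKHA5 and ANKRD13A rose by 0.21, GAS2L3 by 0.20, CSRNP2 by 0.18, ENO2 by 0.17, RACGAP1 by 0.13 and TUBA1A by 0.10 in the authors' deposited table. The authors' deposited tables had KRT80 called higher in clone 4, at 0.12 (q = 0.00684), and lower in clone 5, at -0.09 (q = 0.028).

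The difference in the doxycycline effect between the clones was tested for 552 members in a test over 11778 genes, of which 0.221% passed. It passed in 4 members, namely KRT80, AMIGO2, the netrin gene NTN4 and ENO2, with differences of clone 4 minus clone 5 of 0.18 to 0.21 in size and q values of 0.000238 to 0.0428. The keratins KRT7, KRT8 and KRT18, called in clone 5, did not pass it (q of 1, 0.926 and 0.649).

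**Figure D5:**
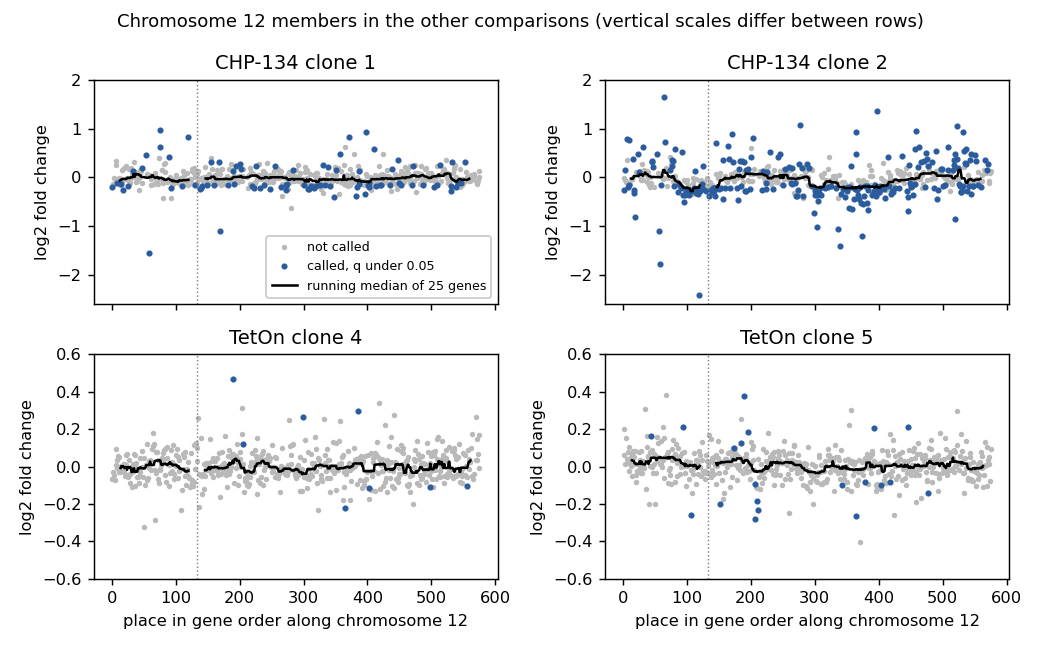
Log2 fold change of members in gene order in the CHP-134 clones (top) and after doxycycline in the TetOn clones (bottom), with called members in blue and the running median of 25 members in black; the vertical scale of the bottom row is narrower. The running medians stay between -0.28 and 0.15 in all 4 panels.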

How the data were processed

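RNA sequencing of RPE1 and CHP-134 cell lines was analysed from 5 tables of comparisons deposited by the authors. Reads were aligned with STAR and compared with DESeq2, per the submitters' processing notes, which name no versions. The genome build, annotation, strand setting and counting rule of the tables are given by no source used here. Per the file headers, each deposited table gives a Status, a mean count (a signal averaged over the libraries, whose scaling is not stated), a log2 fold change with its SE, and a q-value (adjusted p-value). Genes with the Status Low or Outlier, which carry a q of 1, were left out as not usable. The direction of each table was set by the sign of TRIM37. The median SE was smaller at a mean count under 1 (0.0555 in TetOn clone 4) than at 10 to 100 (0.19), and whether the authors shrank the fold changes is not stated. No value per library was used, so depth and the spread of single libraries are unknown.

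Symbols were placed with the RefSeq table (GRCh38.p14): 22696 of 23710 had a place, and 530 members matched by current and 45 by older symbol. A call is a q under 0.05 as deposited. Recomputing q values from the log2 fold change and SE called 6959 genes against 6963 deposited in the knockout table. The group level of a gene was rebuilt as 2 × mean count / (1 + fold change) for the control and that value times the fold change for the other group. Level differences are log2 values with a pseudocount of 1, minus the median of the other chromosomes (-0.482 and -0.631 for untreated TetOn clones 4 and 5 against wild type). The difference of the doxycycline effect was taken over the root of the summed squares of both SEs, with a two-sided normal p-value and Benjamini-Hochberg adjustment over 11778 genes. Splitting the rebuilt levels by arm and the runs of 25 genes on other chromosomes were chosen after the data were seen. The members, function lists and classes were chosen with earlier results of these data known. Named genes were the 12 members farthest above and below the knockout median, the 12 most abundant members within 0.25 of it, the 6 most abundant of each list, the ends of the arms, and in each other table all called members in a direction up to 10, otherwise the 5 with the largest change. Scripts used Python 3.11.15, pandas 2.3.3, numpy 2.4.6 and scipy 1.17.1, and were tested on simulated data.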

Additional observations from a re-analysis of the deposited data

Results flagged for a closer look

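The doxycycline effect differed between the TetOn clones in 4 members by a test of the difference itself, adjusted over 11778 genes. Given as clone 4 minus clone 5 on the log2 scale, the difference was 0.21 (SE 0.0409, q = 0.000238) for KRT80, whose values were 0.12 and -0.09. It was 0.20 (SE 0.0408, q = 0.000963) for AMIGO2, with values of 0.0011 and -0.20. For NTN4 it was 0.18 (SE 0.0463, q = 0.0371), with values of 0.10 and -0.08, and for ENO2 -0.19 (SE 0.0495, q = 0.0428), with values of -0.03 and 0.17. The untreated clones also differed in the level of these genes. As a share of the rebuilt wild type level, clones 4 and 5 stood at 49% and 91.6% for KRT80, 85.7% and 111% for AMIGO2, 76.3% and 156% for NTN4, and 216% and 99.2% for ENO2. The part of these levels in the differences was not tested.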

How the results depend on the processing

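Over all alternatives, 101 values stayed within a tolerance and 25 moved beyond it. The tolerance was 1.5-fold for counts, 0.0798 for rebuilt levels and the members' median SE for other medians. A change of sign within it was not counted as a move. Counts could still change within it, such as from 514 to 440 called higher in the knockout at a mean count of at least 500. A minimum change of 1.5-fold left 190 members called higher and 4 lower in the knockout, 5 and 2 in CHP-134 clone 1, 18 and 14 in clone 2, and 0 in either direction in both TetOn clones. With the statistics centred on their median and rescaled to their central spread, 315 members were called higher and 7 lower in the knockout. The same setting gave 2 and 1 in CHP-134 clone 1, 1 and 0 in clone 2, and 0 lower in TetOn clone 4. With no mean count minimum 39 chromosome 12 genes were called lower in the knockout. A q under 0.01 gave 16 higher and 38 lower in CHP-134 clone 1, 0 lower in TetOn clone 4 and 2 members for the difference between TetOn clones, and a q under 0.10 gave 46 higher in CHP-134 clone 1 and 7 higher in TetOn clone 4. A running median of 51 genes lowered the highest value of the q arm from 0.77 to 0.65. Stricter thresholds admit fewer genes by construction. The share of all usable genes was not worked out at these alternative settings, so their counts stand without a background. A pseudocount of 10, added after the data were seen, kept the arm medians of the rebuilt levels within the tolerance. No paired analysis was possible because the tables hold no values per library, and leaving out single libraries was not possible for the same reason. The rebuilt levels depend on the authors' separate normalizations and carry no error.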
